A study of Mus musculus with 29 samples.

Results

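Galanin and 9 other neuropeptide genes of the cerebral cortex were followed in cultures of adult cortical neurons: Gal, Npy, Sst, Vip, Cck, Tac1, Penk, Pdyn, Adcyap1 and Crh. They were looked up by symbol in a table of the authors' own comparisons that keeps a gene only if its adjusted p was under 0.1 at 1 or more of 5 days in culture, and 7 of the 10 were there, among 5826 genes of 19085 tested. Vip, Pdyn and Adcyap1 were not in the table, so they either did not pass at any day or were not among the genes tested. Because each listed gene passed somewhere by construction, that a listed gene passed is no finding.

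The cultures came from adult wild-type C57/BL6 mice. Lesion groups came from animals given a conditioning lesion in vivo a day before plating, and naive groups from animals given none; where and how the lesion was made is not stated in the labels used here. RNA was sequenced at days 1, 2, 3, 5 and 7 from 15 lesion and 14 naive libraries, 3 per group except 2 in the naive group of day 7. The table gives a log2 fold change of lesion over naive, a p-value and an adjusted p per day and no value per library, so depth is unknown here and levels cannot be shown. A positive fold change means higher in lesion cultures, "rose" and "fell" are used only for an adjusted p under 0.1, and each standard error (SE) was implied from a fold change with its p. The table also ranks the genes, and a low number is read here as high expression, since the median implied standard error of a gene grew with its rank (Spearman's rho = 0.93 across the 5826 genes, as a description).

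Neuropeptides are made as larger precursors, cut and trimmed by dedicated enzymes inside dense-core vesicles, and released to act on G protein-coupled receptors. In the cortex Npy, Sst and Vip are expressed largely by GABAergic interneurons, and Cck by both interneurons and pyramidal cells. Galanin is scarce in most adult neurons but is strongly induced in peripheral sensory and sympathetic neurons when their axons are cut, where cytokines that signal through gp130, such as leukaemia inhibitory factor, drive much of the induction. Its gene is for that reason often counted among the genes of the axotomy response.

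Gal was lower in lesion cultures at the last 2 days, days 5 and 7. In the authors' deposited table its log2 fold change was -2.03 at day 1 (SE 1.40), 0.12 at day 2 (1.33), -0.67 at day 3 (1.30), -1.69 at day 5 (0.60) and -2.16 at day 7 (0.59). The adjusted p of Gal in the authors' deposited table was 0.0486 at day 5 and 0.0460 at day 7, and lay between 0.624 and 0.976 at days 1 to 3. On a linear scale Gal was 3.24-fold lower at day 5 and 4.46-fold lower at day 7 in the authors' deposited table. The gene thus fell at days 5 and 7, and at no day did it rise. Its value at day 1 was about as low as at day 7, but with more than double the standard error, and its interval reached from -4.86 to 0.79.

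Such a fall at both days was uncommon, as 65 of the 19085 genes tested, or 0.341%, fell at both day 5 and day 7 in the authors' deposited table; those comparisons share no libraries. Gal ranked 11959 in expression, and the 1245 listed genes ranked 9543 to 14313 had a median log2 fold change of 2.27 at day 5 and 1.03 at day 7 in the authors' deposited table. Of those 1245, 674 rose and 202 fell at day 5, and 228 rose and 62 fell at day 7, in the authors' deposited table. They are listed only because they passed at some day. At such a rank the fold changes of Gal can rest on few reads, which are not shown. Whether Gal itself differed between days was tested over the days from the implied standard errors (F test of heterogeneity, adjusted over 19085 genes), which gave an adjusted p of 1. Between day 7 and day 5 its log2 fold change differed by -0.46 (95% interval -2.16 to 1.24), and between day 5 and day 2 by -1.81 (-4.75 to 1.13). These intervals are wide enough to hold both no difference and a 2-fold one. The Gal gene lies on chromosome 19 from 3409915 to 3414544 on the minus strand of mm10 and has 6 exons in its principal transcript.

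**Figure D1:**
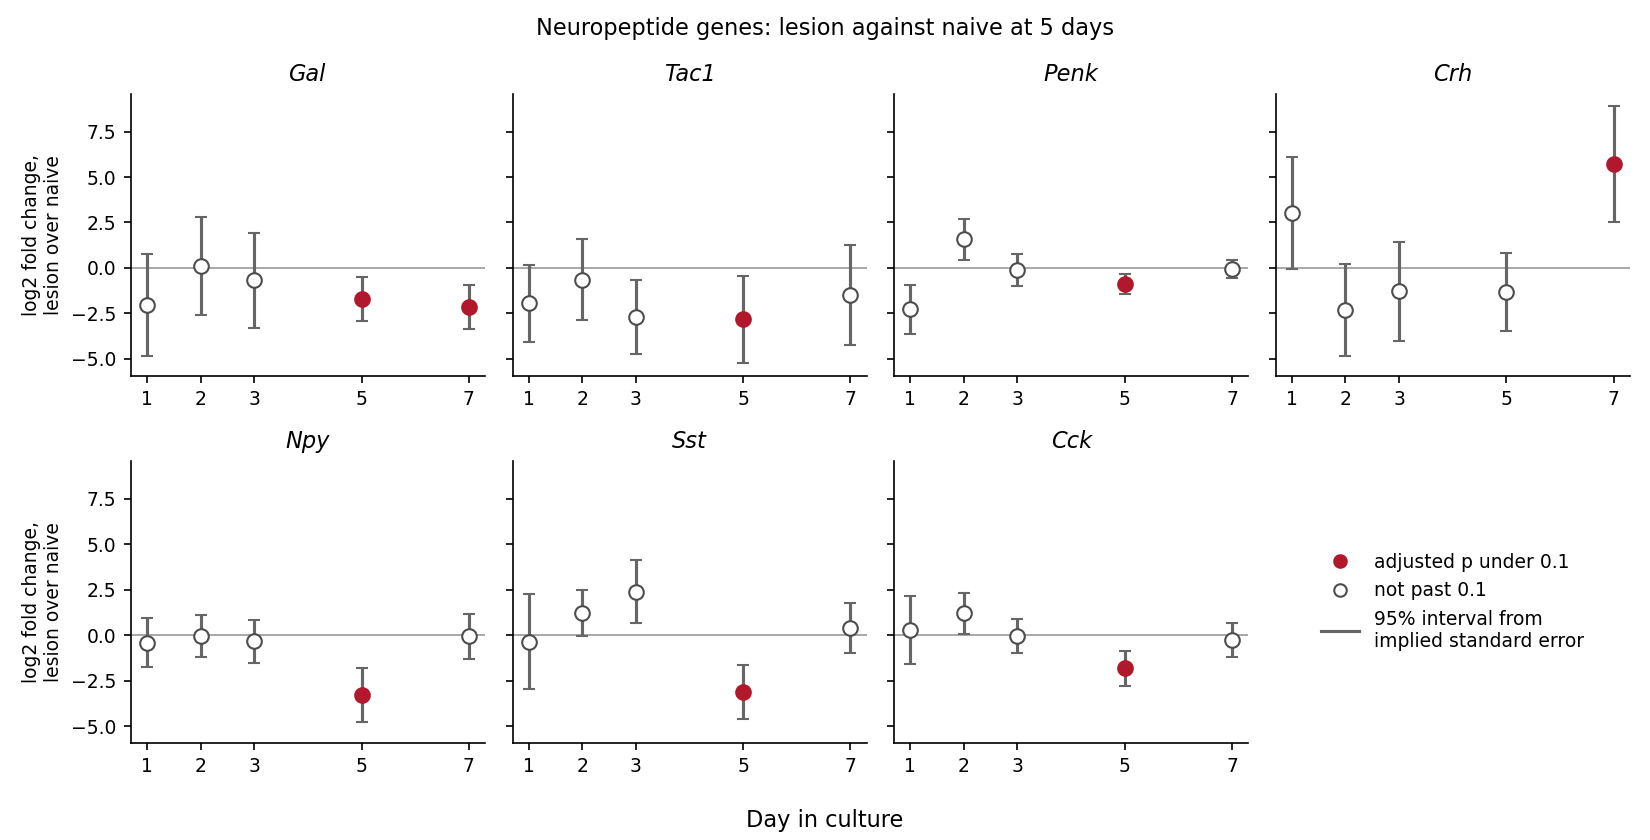
Log2 fold change of lesion over naive (vertical axis) at each day in culture (horizontal axis, to scale) for the 7 listed neuropeptide genes, from the authors' deposited table, with 95% intervals from the implied standard errors. Filled points, at an adjusted p under 0.1, lie below 0 at day 5 in every panel except that of Crh; Gal is also filled at day 7, at -2.16, and Crh at day 7, at 5.71.

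At day 5 the fall was shared by most of the peptide genes. Gal, Npy, Sst, Cck, Tac1 and Penk fell, 6 of the 10 genes looked up (60.0%), while 11.2% of all genes tested fell and 12.8% rose at that day in the authors' deposited table. None of the 10 rose. At days 1, 2 and 3 none of them passed, where 0.618%, 5.97% and 1.48% of all genes tested changed, against 24.0% at day 5. The median log2 fold change of the 7 listed genes was -1.82 at day 5, beside 0.17 for all 5826 genes of the authors' deposited table. The genes were picked with results of these data known, so the comparison describes them and does not test them.

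The largest falls at day 5 were those of Npy and Sst, followed by Tac1 (-2.82, SE 1.19) in the authors' deposited table. The interval of Tac1 (-5.22 to -0.42) holds the values of Npy and Sst, and differences between these genes were not tested. Npy, the gene of neuropeptide Y, an inhibitory peptide of many cortical interneurons, fell by 3.32 (SE 0.74, adjusted p = 0.00188) at day 5 in the authors' deposited table, a 9.98-fold lower level. Its other 4 values in the authors' deposited table lay between -0.43 and -0.05, none past the threshold. Sst, the gene of somatostatin, which marks dendrite-targeting interneurons, fell by 3.12 (SE 0.74, adjusted p = 0.00343) at day 5 in the authors' deposited table. At days 2 and 3 its values were above 0, at 1.23 on day 2 (adjusted p = 0.288) and 2.38 on day 3 (adjusted p = 0.167) of the authors' deposited table. For both genes day 5 gave the lowest value of the 5 days.

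Cck, the gene of cholecystokinin, fell by 1.82 (SE 0.47, adjusted p = 0.00810) at day 5 in the authors' deposited table, with 1.20 at day 2 (adjusted p = 0.234) and values between -0.27 and 0.27 at the other days. Tac1 encodes the precursor of substance P and neurokinin A. In the authors' deposited table it had a log2 fold change below 0 at all 5 days, from -2.82 at day 5 to -0.64 at day 2, with implied standard errors of 1.00 to 1.36. Its day 5 value was just inside the threshold, at an adjusted p of 0.0959 in the authors' deposited table, and no other day of Tac1 passed. Penk, the gene of the enkephalin precursor and the most expressed of the 7 by rank (5443), fell by 0.88 (SE 0.26, adjusted p = 0.0202) at day 5 in the authors' deposited table. Its earlier values pointed both ways and missed the threshold, with -2.27 at day 1 (adjusted p = 0.143) and 1.57 at day 2, just outside it (adjusted p = 0.107), in the authors' deposited table.

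Crh, the gene of corticotropin-releasing hormone, a stress peptide that some cortical interneurons make, was the exception. In the authors' deposited table it had log2 fold changes of 3.02, -2.32, -1.28 and -1.31 at days 1, 2, 3 and 5, none past the threshold. At day 7 it rose by 5.71 (SE 1.58, adjusted p = 0.0470) according to the authors' deposited table. With a rank of 13737 it is the least expressed of the 7, and a fold change of that size in a weakly expressed gene can rest on few reads, which the table does not show. At day 7, where 3.11% of all genes tested rose and 0.985% fell in the authors' deposited table, Crh rose, Gal fell, and none of the other 8 genes passed.

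Promoter sequences are shown for 4 of the genes that fell together at day 5. Gal was set beside Sst, Cck and Tac1, chosen for a match to the cyclic AMP response element or a variant of it. That element is the classic control site of peptide genes. Each line holds the 250 bases before the gene start annotated by RefSeq (GRCm38.p6, the assembly also named mm10), written 5′ to 3′ on the gene's strand, with motif matches in capitals. Of the 10 genes 8 had an entry in the promoter table, Penk and Crh being those with none.
Gal, chr19:3414545-3414794, minus strand: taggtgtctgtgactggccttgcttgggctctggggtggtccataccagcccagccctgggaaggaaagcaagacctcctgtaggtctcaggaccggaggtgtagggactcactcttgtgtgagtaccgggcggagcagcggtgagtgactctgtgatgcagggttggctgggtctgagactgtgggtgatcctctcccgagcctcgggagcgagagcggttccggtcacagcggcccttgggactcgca
Sst, chr16:23890845-23891094, minus strand: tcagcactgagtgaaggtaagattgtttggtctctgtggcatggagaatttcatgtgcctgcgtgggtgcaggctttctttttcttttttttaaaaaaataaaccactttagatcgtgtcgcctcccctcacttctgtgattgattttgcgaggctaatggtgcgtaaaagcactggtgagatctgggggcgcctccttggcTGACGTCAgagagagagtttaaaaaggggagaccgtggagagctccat
Cck, chr9:121495695-121495944, minus strand: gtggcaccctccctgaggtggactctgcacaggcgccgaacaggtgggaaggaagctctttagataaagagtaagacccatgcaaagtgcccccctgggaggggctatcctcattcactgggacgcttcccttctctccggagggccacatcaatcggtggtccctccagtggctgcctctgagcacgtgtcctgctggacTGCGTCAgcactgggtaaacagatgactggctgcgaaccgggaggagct
Tac1, chr6:7554811-7555060, plus strand: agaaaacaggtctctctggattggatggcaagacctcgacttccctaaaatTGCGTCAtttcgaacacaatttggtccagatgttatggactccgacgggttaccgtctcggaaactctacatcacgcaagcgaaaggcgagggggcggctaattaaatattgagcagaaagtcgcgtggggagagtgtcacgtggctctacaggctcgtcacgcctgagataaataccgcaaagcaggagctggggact

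The letters searched, on both strands, were TGACGTCA (the cyclic AMP response element), TGCGTCA (a variant of it), TGANTCA (the AP-1 site) and TATAAA (the TATA box). Sst carries TGACGTCA beginning 48 bases before its start, and 1.55% of the 32851 promoter windows of that length hold it. The variant TGCGTCA begins 49 bases before the start of Cck and 199 bases before that of Tac1, and 1.75% of windows hold it. These distances hold for the RefSeq starts. The GENCODE starts of Sst (23890958) and Tac1 (7554879) lie inside the windows shown, so part of each of those windows is within the gene by GENCODE. None of the 4 motifs is in the window of Gal. None was found either for Npy, which also fell at day 5 and whose window is not shown. TGANTCA is in 6.75% of all windows and TATAAA in 12.4%. Of the 4 genes shown, Cck and Tac1 share the variant, and Sst and Gal share no searched motif with them or with each other. As Sst, Cck and Tac1 were chosen for holding a match, their contrast with Gal follows from that choice. These matches are descriptions of letters only.

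In the test over days 5 of the 7 listed peptide genes passed, a share near that of the listed genes as a whole. Sst (adjusted p = 0.00312), Penk (0.00606), Crh (0.0113), Cck (0.0298) and Npy (0.0552) had lesion effects that differed over the 5 days (F test of heterogeneity on implied standard errors, adjusted over 19085 genes), as did 20.1% of all genes tested and 66.0% of the 5826 listed genes, whereas Gal and Tac1 had an adjusted p of 1. For Npy, Sst and Cck the adjusted p was 1 without day 5, for Cck it was 0.165 without day 2, and for Crh it was 0.227 without day 7. Genes outside the table were given a p of 1 there and between pairs of days, so that shares of all genes tested are lower bounds and only listed genes could pass.

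Pairs of days showed where the differences lay, with 10 pairs compared for each gene and p-values adjusted within a pair over 19085 genes. Among the listed genes alone, the share that differed was 43.8% for day 5 against day 2, 62.9% against day 3 and 52.9% against day 1, and 8.48% for day 7 against day 5. At day 5 against day 2, where 13.4% of genes tested differed, Sst was lower by 4.35 in log2 fold change (difference -4.35, SE 0.97, adjusted p = 0.00274). In the same pair the difference was -3.27 for Npy (adjusted p = 0.0183), -3.02 for Cck (0.00537) and -2.45 for Penk (0.00704). At day 5 against day 3 (19.2% of genes), it was -5.50 for Sst (adjusted p = 0.000884), -2.97 for Npy (0.0253) and -1.76 for Cck (0.0674). Npy also differed between day 5 and day 1, by -2.89 (adjusted p = 0.0488; 16.2% of genes). Crh was higher at day 7 than at day 2 by 8.03 (adjusted p = 0.0185; 5.09% of genes) and than at day 3 by 6.99 (0.0599; 4.01%). Penk differed between day 2 and day 1, by 3.84 (SE 0.87, adjusted p = 0.0112), as did 3.24% of genes.

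Between days 5 and 7 the lesion effects on Npy, Sst and Crh differed, and for Gal no difference was detected. The difference of day 7 minus day 5 was 3.52 for Sst (SE 1.00, adjusted p = 0.0653), 3.25 for Npy (0.96, 0.0773) and 7.02 for Crh (1.90, 0.0533), in a pair in which 2.59% of genes tested differed. For Cck (1.54), Tac1 (1.33) and Penk (0.82) it did not pass the threshold. For Gal it was -0.46, with an interval that does not reach the values of Sst, Npy or Crh; these genes were measured in the same libraries, and their difference from Gal was not tested.

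**Figure D2:**
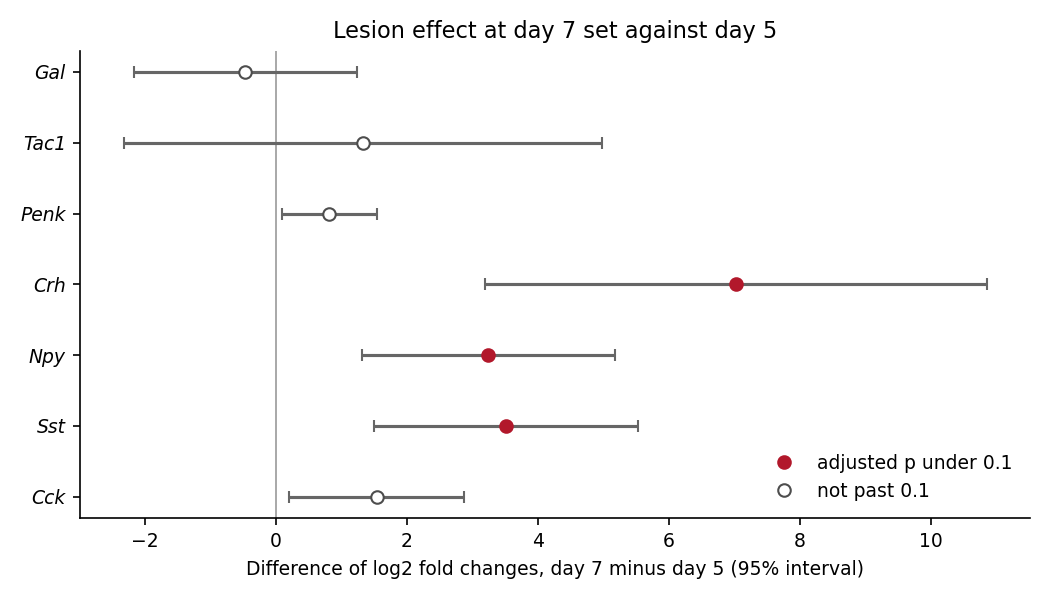
Difference of the log2 fold changes of lesion over naive, day 7 minus day 5 (horizontal axis), for the 7 listed neuropeptide genes, with 95% intervals. Npy (3.25), Sst (3.52) and Crh (7.02) lie to the right of 0 at an adjusted p under 0.1, and the interval of Gal (-2.16 to 1.24) spans 0.

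Genes that process and store peptides fell at day 5 together with the peptides. Of 20 such genes, 17 are in the table and 15 fell at day 5 (75.0% of the list, beside 11.2% of all genes tested), with none risen, in the authors' deposited table. Their median log2 fold change in the authors' deposited table was -1.42 at day 5, -0.46 at day 7, and between 0.07 and 0.46 at days 1 to 3. The list holds convertases, which cut precursors, enzymes that trim and amidate the products, and granins and other proteins of the dense-core vesicle. Of the 17 genes 11 rank up to 4771, and 1232 of the 2067 listed genes so ranked fell at day 5 in the authors' deposited table. Only the members in the table could be counted as changed, and the 3 outside it are Cpd, Cadps2 and Baiap3.

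Among the granins, Chgb fell by 1.70 (SE 0.30, adjusted p = 0.000167), Scg3 by 1.57 (0.28, 0.000159) and Scg2 by 1.02 (0.21, 0.00112) at day 5 in the authors' deposited table. Scg2, which encodes the precursor of secretoneurin, had risen at days 2 and 3, by 0.93 (adjusted p = 0.0225) and 1.32 (0.00933), in the authors' deposited table. Pam, the enzyme that amidates the end of galanin, neuropeptide Y and many other peptides, did likewise, with 1.35 at day 2, 1.41 at day 3 and -1.43 at day 5 in the authors' deposited table (adjusted p = 0.0149, 0.0490 and 0.00333).

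Cpe, the carboxypeptidase that trims cut precursors and the most expressed gene of the list (rank 32), fell by 0.83 (SE 0.18, adjusted p = 0.00140) at day 5 in the authors' deposited table. The convertase gene Pcsk2 fell by 2.66 (SE 0.93, adjusted p = 0.0455) and Pcsk1n, the gene of a convertase inhibitor, by 1.61 (0.33, 0.00100) at day 5 in the authors' deposited table. Cadps, which primes dense-core vesicles for release, fell by 2.05 (SE 0.40, adjusted p = 0.000576) in the same comparison of the authors' deposited table. The other convertase, Pcsk1, fell at day 2 (-4.66, adjusted p = 0.0752) and had -2.08 at day 5 (adjusted p = 0.233) according to the authors' deposited table. At day 7 none of these genes fell, and Ptprn, a vesicle membrane protein, rose by 1.17 (adjusted p = 0.0654) according to the authors' deposited table. Gal fell at day 7 in those libraries without a fallen member of this list.

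**Figure D3:**
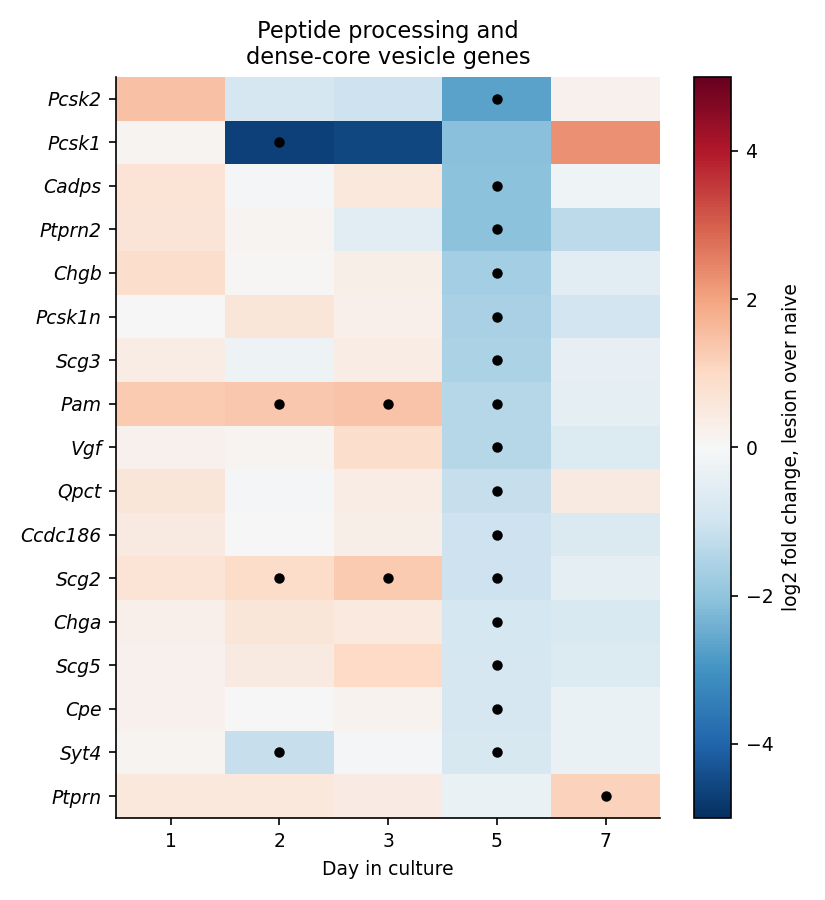
Log2 fold change of lesion over naive (colour) for the 17 listed genes of peptide processing and dense-core vesicles (rows, lowest value at day 5 on top) at each day in culture (columns), from the authors' deposited table. Black dots mark an adjusted p under 0.1, and they fill the day 5 column for 15 of the 17 genes.

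Receptors followed no common direction. The galanin receptor genes Galr1, Galr2 and Galr3 are not in the table. Of 26 receptor genes for these peptides, 7 are in the table. At day 5, 4 rose (15.4% of the list, beside 12.8% of all genes tested) and 2 fell (7.69%, beside 11.2%) in the authors' deposited table. The only one with a rank up to 9542, Adcyap1r1, a receptor for the peptide PACAP, fell by 1.55 (SE 0.35, adjusted p = 0.00228) at day 5 in the authors' deposited table. Oprl1, the nociceptin receptor gene, fell by 2.47 (SE 0.87, adjusted p = 0.0470) at day 5 in the authors' deposited table.

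The 4 receptors that rose at day 5, Tacr2 (5.13), Tacr3 (4.08), Sstr1 (3.66) and Npy4r (3.44) according to the authors' deposited table, all rank between 14088 and 18517, with standard errors of 1.24 to 1.60. Listed genes ranked from 14314 to 19085 had a median log2 fold change of 3.69 at day 5 in the authors' deposited table. Those ranked 9543 to 14313, where Sstr1 (14088) lies, had a median of 2.27. The somatostatin receptor gene Sstr2 rose at day 7 (4.32, SE 1.08, adjusted p = 0.0264) according to the authors' deposited table. Npy4r lies outside the rule for named genes and was named after its values were seen.

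Other peptide precursors gave 7 listed genes of 44. At day 5 a single one fell and a single one rose (2.27% each, beside 11.2% and 12.8% of all genes tested) according to the authors' deposited table. Nppa, the gene of atrial natriuretic peptide, fell by 1.62 (SE 0.44, adjusted p = 0.0112) at day 5, and Qrfp, a feeding-related peptide gene, rose by 5.66 (1.41, 0.00548), in the authors' deposited table. At day 2, where 1.89% of genes tested rose and 4.08% fell in the authors' deposited table, Prok2 rose by 2.33 (adjusted p = 0.0914) and Nppc, the gene of C-type natriuretic peptide, had -4.58 (0.0346). Pomc, the precursor of melanocortins and endorphin, fell by 2.85 (adjusted p = 0.0765) and Adm, the gene of the vascular peptide adrenomedullin, had -2.44 (0.0558) at day 3 of the authors' deposited table, where 0.943% of all genes tested fell. The day 5 fall was thus not seen in the wider list of peptide genes, most of which are not in the table.

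Of the gp130 cytokine pathway, which induces galanin in injured peripheral neurons, 4 genes rose at day 5. Of 20 genes 5 are in the table, and 4 of the 20 (20.0%) rose at day 5 with none fallen, beside 12.8% of all genes tested that rose, in the authors' deposited table. These were the cytokine genes Il11 (3.68, SE 0.76, adjusted p = 0.000921) and Clcf1 (4.67, 1.16, 0.00554) and the receptor genes Osmr (4.06, 1.29, 0.0278) and Il11ra1 (2.21, 0.57, 0.00714) of the authors' deposited table. Il11, Clcf1 and Osmr rank 10313, 11132 and 10276, and of the 1245 listed genes ranked 9543 to 14313, 674 rose at day 5 in the authors' deposited table, with the median of 2.27 given above. Il6st, the gene of gp130 itself, fell at day 2 (-1.29, adjusted p = 0.0862) and had 0.47 at day 5 (adjusted p = 0.456) according to the authors' deposited table. Lif and Stat3 are not in the table. In the comparisons in which Gal fell, days 5 and 7, Il11 rose in both, with 1.86 at day 7 (adjusted p = 0.0549) according to the authors' deposited table. It was the only 1 of the 20 genes that passed at day 7 (5.00%, beside 3.11% of all genes tested that rose). Of the 1245 listed genes ranked 9543 to 14313, 228 rose at day 7. A link of these genes to Gal was not tested.

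Markers of neurons and of other cell types moved at the same day as the peptide genes. At day 5, 12 of 21 GABAergic neuron markers fell (57.1%) and 2 rose, and 10 of 19 pan-neuronal markers fell (52.6%) with none risen, in the authors' deposited table. Of all genes tested, 11.2% fell and 12.8% rose at that day. Of the listed markers, 8 of 15 GABAergic and 9 of 13 pan-neuronal ones rank up to 4771. Among the 2067 listed genes so ranked, 1232 fell at day 5 in the authors' deposited table. Values of listed GABAergic markers ran from -3.00 to 4.62 at day 5, with a median of -1.73, and those of pan-neuronal markers from -1.70 to 0.41, with a median of -1.10, in the authors' deposited table. By contrast, mural, fibroblast and meningeal markers rose in 9 of 11 cases (81.8%; 1.72 to 11.14) and astrocyte markers in 6 of 12 (50.0%; 1.89 to 5.59) at day 5 in the authors' deposited table. Of 17 glutamatergic cortical neuron markers, 4 are in the table and none passed at day 5 in the authors' deposited table. At day 7, when Gal also fell, 5 of the 11 mural, fibroblast and meningeal markers rose (45.5%, beside 3.11% of all genes tested), none of the astrocyte markers passed, and 1 of 19 pan-neuronal markers fell, in the authors' deposited table. In such cultures fewer cells of a type and less RNA per cell cannot be told apart, and the part of these shifts in the peptide genes' fall was not tested. The table holds no levels, so the neuronal label of the cultures could not be checked against them. Ranks of the listed markers overlapped between cell types. They ran from 244 to 13935 for GABAergic, 321 to 11022 for pan-neuronal and 8484 to 15315 for glutamatergic markers. For other cell types they ran from 856 to 12236 (oligodendrocyte lineage), 2651 to 9855 (microglia and macrophage) and 4864 to 13429 (astrocyte).

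Set beside the GABAergic marker genes, Npy and Sst lay at the low end at day 5. The GABA synthesis genes Gad1 and Gad2 fell by 1.64 (SE 0.29) and 1.97 (0.37), and Slc32a1, the gene of the vesicular GABA transporter, fell by 1.87 (0.40) at day 5 in the authors' deposited table. Other markers came close to Npy (-3.32) and Sst (-3.12), as the calretinin gene Calb2 fell by 3.00 (SE 0.87, adjusted p = 0.0167) and Erbb4, a neuregulin receptor gene, fell by 2.52 (0.61, 0.00447) at day 5 in the authors' deposited table. The intervals of Npy (-4.80 to -1.84) and Sst (-4.60 to -1.64) hold the values of Gad2 and Slc32a1, and as the genes share libraries the difference was not tested. Gad1 fell again at day 7 (-1.01, adjusted p = 0.0524), as Gal did, in the authors' deposited table; of the GABAergic list no other gene passed at day 7.

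**Figure D4:**
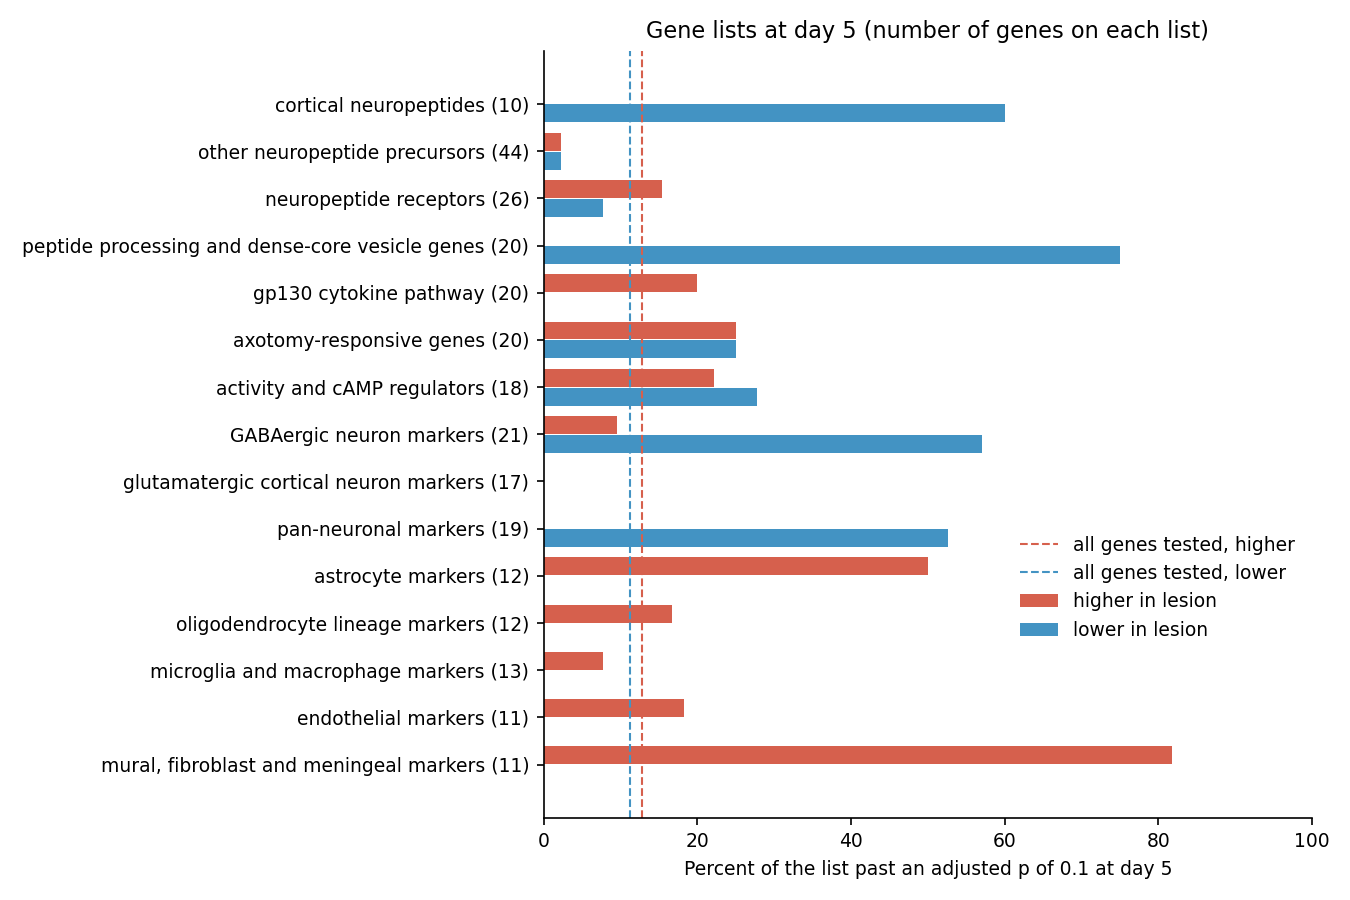
Percent of each gene list (vertical axis, number of genes in brackets) that was higher or lower in lesion cultures at day 5 (horizontal axis), from the authors' deposited table; dashed lines give the percent of all genes tested, 12.8% higher and 11.2% lower. The cortical neuropeptides (60.0% lower) and the peptide processing genes (75.0% lower) lie with the GABAergic (57.1%) and pan-neuronal markers (52.6%).

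The genes whose pattern over the 5 days lay nearest to that of Gal were found by the Euclidean distance between log2 fold changes, over 4692 listed genes (predicted genes and ranks above 14313 left out; median distance 4.01). They were Eepd1 (distance 0.74), Atf3 (1.29), Inpp4b (1.49), Lilrb4 (1.66), Trp53rk (1.81) and Mtfp1 (1.85). Pearson's r with Gal over the 5 days was between 0.79 (Atf3) and 1.00 (Eepd1), as a description of 5 points. Eepd1, a nuclease gene, had -1.54, -0.04, -0.50, -1.37 and -1.77 at days 1, 2, 3, 5 and 7 in the authors' deposited table, of which day 5 passed (adjusted p = 0.0971).

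Atf3, an injury-induced transcription factor, fell at day 1 (-2.06, SE 0.49, adjusted p = 0.0462) and had -0.68 at day 5 and -1.53 at day 7, neither past the threshold, in the authors' deposited table. Inpp4b, a lipid phosphatase gene, fell by 2.17 at day 5 (adjusted p = 0.0444) and had -2.42 at day 7 (0.111) according to the authors' deposited table. Lilrb4 has a near-identical neighbour, Gp49a, with which reads could be shared. None of the 6 fell at both days 5 and 7, as Gal did. With the distance taken between fold changes divided by their standard errors, 1 of these 6 genes, Eepd1, remained among the nearest 6.

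**Figure D5:**
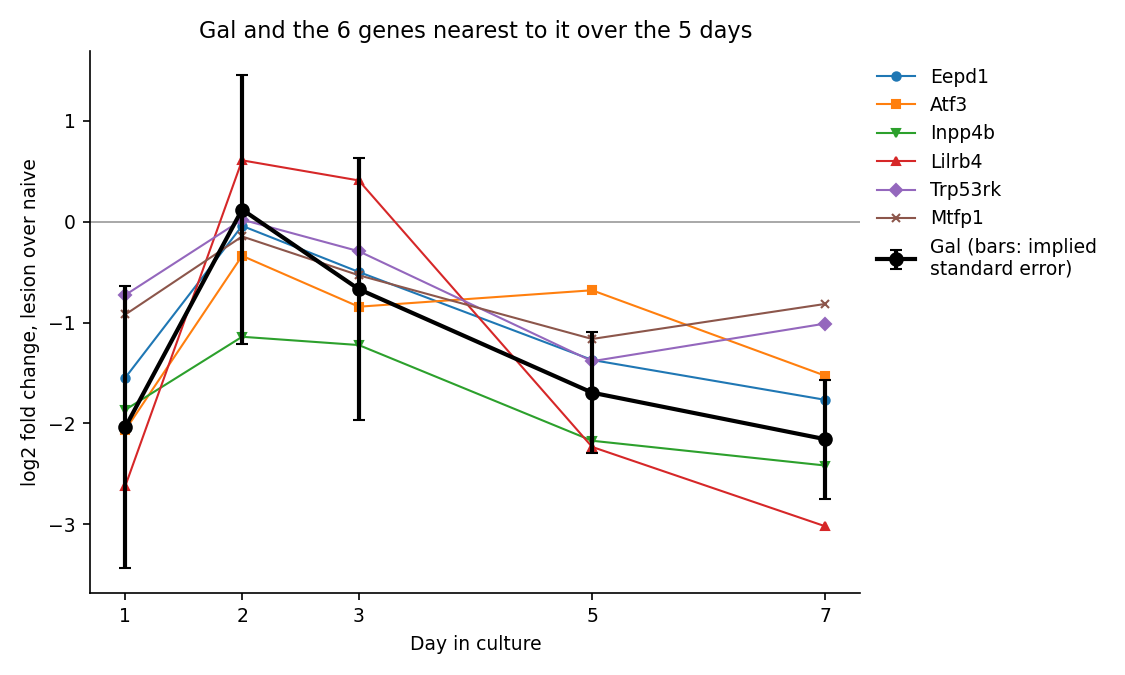
Log2 fold change of lesion over naive (vertical axis) by day in culture (horizontal axis, to scale) for Gal (black, bars are the implied standard error) and the 6 genes nearest to it, from the authors' deposited table. Gal lies at 0.12 at day 2 and lowest at day 7, at -2.16, and its bars are widest at days 1 to 3.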

How the data were processed

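The submitters' processing notes name STAR and mm10 for alignment; no source used here states how reads were counted, filtered or scaled, nor whether strand was used. The deposited table holds, per the file headers, the authors' log2 fold change, p-value and adjusted p-value of lesion against naive for each day. Its file name gives voom, limma and a false discovery rate of 0.1. Its rank column, a whole-number score deposited by the authors, has no stated unit. It has no values per library, so the depth of each sample, and its precision, is unknown here.

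The labels do not say whether libraries came from separate cultures or animals; p-values thus cover the spread between libraries only, which may be technical. Benjamini-Hochberg adjustment rebuilt over 19085 tests matched the deposited adjusted p-values within a relative 9.15e-13. Standard errors were implied from fold change and p with a t distribution of 43 degrees of freedom. That number, searched between 5 and 100, made the implied error least dependent on p among genes ranked up to 4771, gene and day effects removed. Days were compared by Cochran's heterogeneity as an F test and by pairs; this step was tested on simulated data. It stands in for a test on libraries and assumes independent days.

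Members and the 15 gene lists were chosen with earlier results of these data known. Named genes are the listed members, up to 6 genes of each other list with the smallest adjusted p, and the 6 nearest to Gal, of which 1 list gene is not reported here; genes named beyond these as examples (Calb2, Pam, Pcsk1, Pcsk2, Ptprn, Npy4r) were chosen after their values were seen. Gene positions came from GENCODE vM21 (GRCm38), with the same chromosome and strand as the table for all 7 members. Python 3.11.15, scipy 1.17.1 and pandas 2.3.3 were used. Alternatives were other thresholds, ranks up to 9542, other degrees of freedom and leaving out days.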

Additional observations from a re-analysis of the deposited data

Results flagged for a closer look

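Lesion effects differed between the 5 days for 5 of the 7 listed neuropeptide genes, by an F test of heterogeneity on implied standard errors adjusted over 19085 genes. The same held for 20.1% of all genes tested and for 66.0% of the 5826 listed genes, so the share is near that of the listed genes. The adjusted p was 0.00312 for Sst, which fell at day 5 (-3.12) and had values above 0 at days 2, 3 and 7 in the authors' deposited table. Penk (adjusted p = 0.00606) had its lowest value, -2.27, at day 1 and its highest, 1.57, at day 2 in the authors' deposited table. For Crh the adjusted p was 0.0113, with its rise of 5.71 at day 7 in the authors' deposited table. Cck (0.0298) and Npy (0.0552) each fell at day 5 alone in the authors' deposited table. At day 5, 24.0% of all genes tested changed, the highest share of the 5 days.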

How the results depend on the processing

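At an adjusted p under 0.05, 5 of the 6 fallen peptide genes remained at day 5, Tac1 (-2.82) being the one lost, and Gal kept its calls at days 5 and 7. Under 0.01, 3 peptide genes fell at day 5 and 0 of the 10 changed at day 7, so that neither value of Gal, -1.69 at day 5 and -2.16 at day 7, passed; the authors' voom and limma test gave Gal and Crh alone, of the 7 listed peptide genes, an unadjusted p under 0.05 at day 7. Among genes ranked up to 9542, 3 peptide genes fell at day 5 and 0 changed at day 7, as Gal, Npy, Tac1 and Crh rank lower. Counts at day 5 under 0.01 were 8 of 15 processing genes, 7 of 12 GABAergic and 5 of 10 pan-neuronal markers. Risen receptors, 4 at day 5, were 2 under 0.05, 0 under 0.01 and 0 among genes ranked up to 9542. The adjusted p of Gal for a difference between days was 0.542 when adjusted over the genes in the table and 1 with 19 degrees of freedom or without any single day. Of the day differences of other genes, those of Npy, Sst, Cck and Crh were lost without the days named in the report, and 19 degrees of freedom changed no call. No paired analysis was possible because the table gives comparisons and no values per library, and leaving out single replicates was not run for the same reason. Depth is unknown, and the large standard errors of Gal at days 1 to 3 limit what can be said of those days.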

Other observations

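Genes of the axotomy response, the company in which galanin is usually named, moved both ways at day 5: of 20 genes 5 rose and 5 fell (25.0% each, beside 12.8% and 11.2% of all genes tested) according to the authors' deposited table. The fallen ones included the growth-cone genes Gap43 (-1.29, SE 0.32) and Basp1 (-1.13, 0.26) and the neurotrophin receptor gene Ngfr (-1.46, 0.39), and the risen ones the galectin gene Lgals1 (2.69, 0.28) and the urokinase receptor gene Plaur (2.87, 0.51), in the authors' deposited table. Lgals1 also rose at day 7 (1.07, adjusted p = 0.00591), where Gal fell, in the authors' deposited table.

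Of 18 activity and cyclic AMP regulators 4 rose (22.2%, beside 12.8% of all genes tested) and 5 fell (27.8%, beside 11.2%) at day 5 in the authors' deposited table. The activity genes Fos (-1.29, adjusted p = 0.0136) and Nr4a1 (-1.30, 0.00275) fell, and Egr1 (1.19, 0.00947), Junb (1.06, 0.0213) and Bdnf (4.09, 0.0131), a neurotrophin gene, rose in the authors' deposited table. Egr2 rose at day 5 (3.01) and at day 7 (3.82, adjusted p = 0.00730) according to the authors' deposited table. Oligodendrocyte lineage (4 of 12) and endothelial markers (6 of 11) fell at day 2, beside 4.08% of all genes tested, and again at day 3 (2 of 12 and 4 of 11, beside 0.943%) in the authors' deposited table. Neuronal markers fell at day 2 as well, 4 of 19 pan-neuronal (21.1%) and 3 of 17 glutamatergic ones (17.6%), in the authors' deposited table. Of the pan-neuronal markers 1 rose at that day. Of 21 GABAergic markers 2 fell and 3 rose at day 2. Microglia and macrophage markers (2 of 13) fell at day 1, when 0.618% of all genes tested changed in either direction, in the authors' deposited table; at those 3 days none of the 10 peptide genes passed.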
